A study of Homo sapiens with 4 samples.

Results

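The genes described here are 34 genes of glycolysis, of pyruvate entry into mitochondria and of lactate and glucose transport, chosen by name for their place in the pathway and matched on the gene symbol of each listed peak. The experiment lists peaks under 15016 gene symbols, and 29 of the 34 genes are among them, while GAPDH, LDHA, PDK2, PDHB and MPC2 had no peak in either list. RNA bound by NSUN2, an enzyme that methylates cytosines in RNA, was measured by RNA immunoprecipitation and sequencing (RIP-seq) in wild-type PANC-1 cells, an established line from a human pancreatic ductal adenocarcinoma. Cells received 30 mM sodium lactate or the vehicle ddH2O for 24 h, and each condition had 1 library of RNA pulled down with an anti-NSUN2 antibody (IP) and 1 library of lysate RNA taken before the pull-down (input), 4 libraries in all. No value has a replicate error, and every interval given covers counting error only.

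Glycolysis turns glucose into pyruvate in the cytosol. Pyruvate is either reduced to lactate, which leaves or enters the cell through monocarboxylate carriers, or carried into mitochondria and oxidised by the pyruvate dehydrogenase complex. Many pancreatic ductal tumours take up much glucose and release lactate, and the transcription factor HIF1A drives several of the genes under low oxygen.

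The identity of the cells was looked at first, through marker genes. Peaks lay on all 5 ductal epithelium markers (KRT7, KRT8, KRT18, KRT19 and EPCAM) in the ddH2O list and on 4 of them, without EPCAM, in the lactate list. EPCAM rested on 1 lactate and 3 ddH2O reads, too few to speak for identity. KRT18 had the most IP reads of the markers, 2737 with lactate and 8085 with ddH2O in its most-read window. VIM, known in PANC-1 as a mesenchymal gene, had 615 and 1486. Its 1 peak, at 1.99-fold over input, lay in the ddH2O list alone. The acinar markers PRSS1, CPA1 and CELA3A, the endocrine markers INS and GCG, the endothelial markers PECAM1 and CDH5 and the T cell marker CD3E had no peak, while the leukocyte gene PTPRC had 1 peak, with 3 ddH2O reads and 0 lactate reads.

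Of the 34 genes, 23 (67.6%) had a peak in the lactate list, where 47.1% of all protein-coding RefSeq genes had one, and 28 (82.4%) had a peak in the ddH2O list, where 58.4% of all had one. The protein-coding genes of RefSeq include those that PANC-1 does not transcribe. The lists held 62 peaks of these genes with lactate and 113 with ddH2O, from 48104 and 95785 peaks in all. In 22 genes the ddH2O list held more peaks, in 3 the lactate list did, and in 4 the numbers were equal. Peaks lay in both lists for 22 genes, in the ddH2O list alone for PFKM, PFKFB2, ALDOC, PGK1, ENO2 and LDHB, and in the lactate list alone for PDHA1. Such splits were not computed for all protein-coding genes, and the ddH2O list is the longer one. All peaks of PFKM, ALDOC, PGK1, LDHB and PDHA1 had q-values of 0.165 or more, while PFKFB2 and ENO2 each had a peak with a q-value under 0.05.

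**Figure D1:**
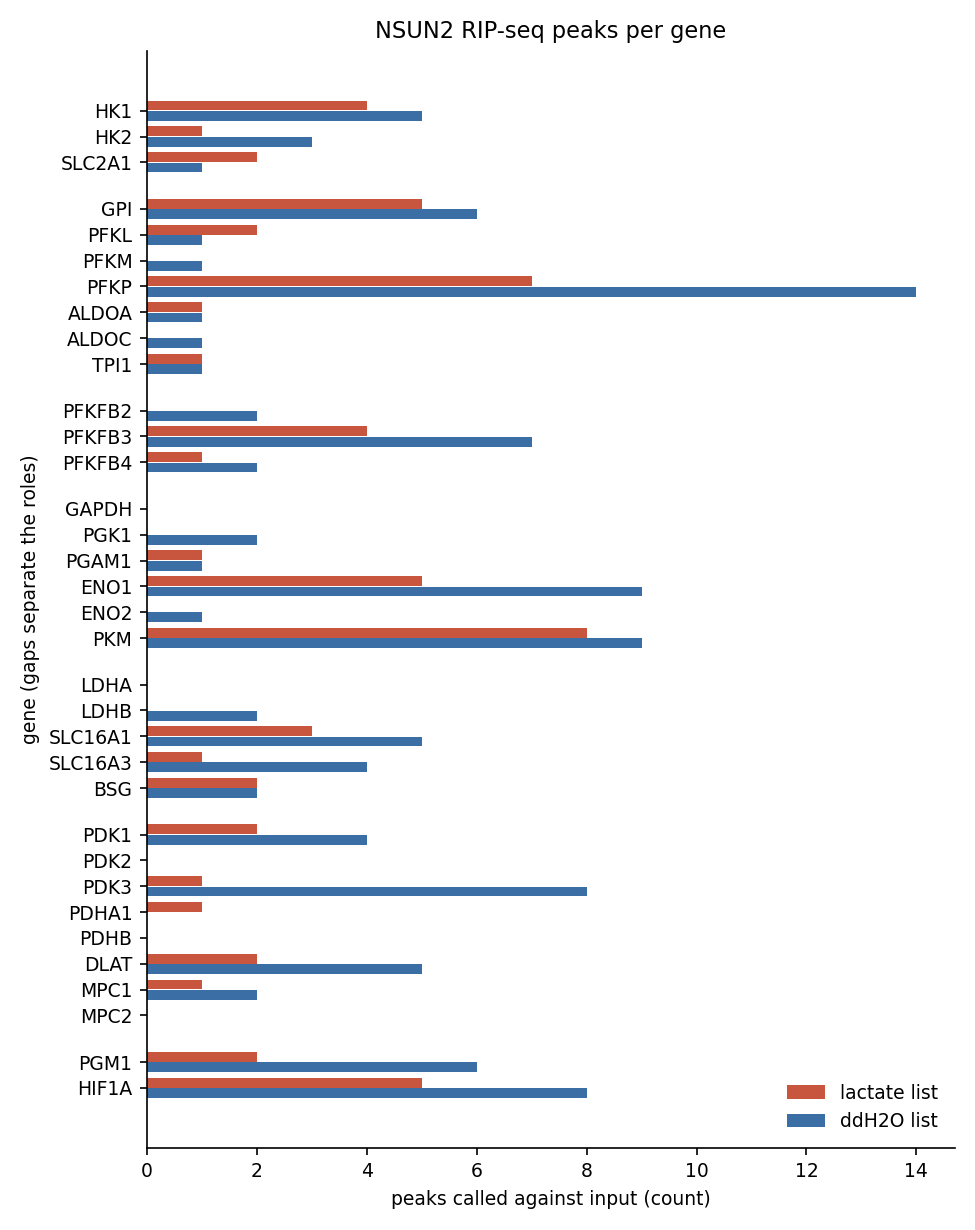
Number of called peaks (horizontal axis, a count) for each of the 34 genes, grouped by role, in the lactate list (red) and the ddH2O list (blue). PKM has the most peaks with lactate, 8, PFKP the most with ddH2O, 14, and 5 genes have none.

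The place of the peaks in the transcript was compared with that of all protein-coding peaks. Exons and UTRs held 46.8% of the 62 lactate peaks (95% Wilson interval 34.9 to 59.0%), against 38.5% over all protein-coding peaks of that list, and 52.2% of the 113 ddH2O peaks (43.1 to 61.2%), against 38.8%. Introns held the other 33 and 54 peaks. The lactate interval includes the share of all protein-coding peaks and the ddH2O interval does not, but the intervals take peaks as independent although PFKP alone gave 14 of the 113. The median fold enrichment was 3.24 for the lactate peaks and 2.95 for the ddH2O peaks, beside 3.24 and 3.03 over all protein-coding peaks. A q-value under 0.05 was found for 28 of the 62 and 59 of the 113, near the shares of the whole lists (20549 of 48104 and 46524 of 95785).

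Reads were compared in windows of 2000 bases around the summit of each merged peak, so that levels of different genes have the same length behind them. The genes had 133 such windows, of which 85, in 26 genes, held at least 10 reads over both IP libraries. Of the 133, 61 had another window's summit within 2000 bases, so their reads are partly shared. The reads came back from the deposited densities, and in all windows of the experiment outside those of MT-RNR2 and MALAT1 they summed to 1945000 for lactate and 3536821 for ddH2O. A window in the IP rises with the amount of the transcript as well as with its binding, and in a bulk lysate fewer cells with a transcript and less of it per cell cannot be told apart. The log2 ratio of lactate over ddH2O is given on the scale of the deposited signals, which the authors rescaled between the IP libraries, and also on the library sums, which lift the median of all windows by 0.44.

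Most reads lay at the ends of a few glycolytic mRNAs. The 4 most-read windows, in ENO1, PKM, ALDOA and TPI1, held 56.5% of all the reads counted over the 133 windows. In 28 of the 29 genes with a window, the most-read one had fewer lactate than ddH2O reads, PDK1 being the exception, which is the direction that the larger ddH2O read sum gives before any scaling.

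**Figure D2:**
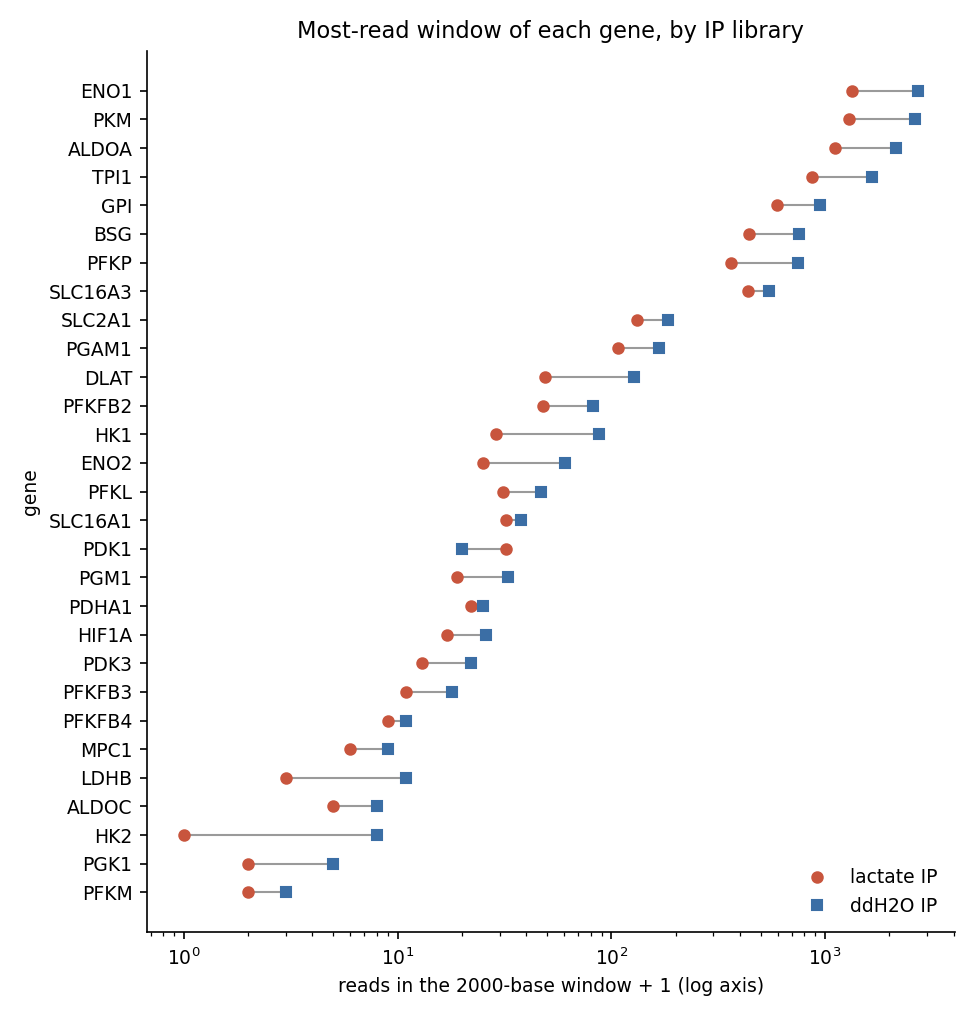
Reads plus 1 (log axis) in the most-read 2000-base window of each of the 29 genes with a peak, in the lactate IP (red circles) and the ddH2O IP (blue squares), before any scaling. Reads run from 1339 and 2720 in ENO1 down to 1 and 2 in PFKM.

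Glucose enters the cell through SLC2A1, the main glucose transporter of many tumour cells. Its 3' UTR window, at chr1:42926119-42926519, held 131 lactate and 183 ddH2O reads, a log2 ratio of 0.38 (95% exact binomial interval 0.04 to 0.71) on the deposited signals and of 0.38 on the library sums. The peak was called in both lists, at 3.85-fold over input with lactate and 4.33-fold with ddH2O. HK1, which phosphorylates glucose, had fewer reads but steeper enrichment.

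The 3' UTR peak of HK1, at chr10:69401439-69401972, was enriched 5.46-fold over input with lactate and 9.14-fold with ddH2O. Its window held 28 and 87 reads, a log2 ratio of -1.02 (-1.72 to -0.42), just past the 2-fold line, and of -0.74 on the library sums, short of it. An intron window of HK1, at chr10:69354793-69354992, went the other way with 10 lactate reads and 0 ddH2O reads. With 1 read added to each count, its log2 ratio was 3.38 on the deposited signals and 4.32 on the library sums. The exact interval of the former began at 1.08, and the count of 0 leaves it without an upper limit. HK2, the inducible hexokinase of tumours, had 4 intron windows, and the most-read one held 0 and 7 reads.

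GPI, the isomerase of glucose phosphate at the start of upper glycolysis, had a 3' UTR window at chr19:34401941-34402413 with 593 lactate and 942 ddH2O reads. Its log2 ratio was 0.57 (0.42 to 0.72), and 0.20 on the library sums. An intron window of GPI, at chr19:34384473-34385171, was higher with lactate past 2-fold, with 46 lactate and 25 ddH2O reads and a log2 ratio of 1.35 (0.64 to 2.14), or 1.72 on the library sums. The gene's exon and 3' UTR windows did not share that ratio.

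PFKP, the platelet type of phosphofructokinase, the committing enzyme of glycolysis, had the most windows, 14. Its windows fell on both sides of the 2-fold line, with 1 higher and 5 lower, or 1 and 2 of these on the library sums. At the 3' end, the windows at chr10:3135599-3136006 and chr10:3136409-3136854 held 360 and 343 lactate reads beside 745 and 670 ddH2O reads. Their log2 ratios were 0.10 and 0.17, and -0.18 and -0.10 on the library sums, so the sign turned with the scaling. Only 2184 bases from the 3' end, the window at chr10:3134506-3134736 held 28 lactate and 128 ddH2O reads, a log2 ratio of -1.53 (-2.21 to -0.97), or -1.29 on the library sums, and its peak was called with ddH2O alone. The windows named at this end share part of their reads with one another. At the other end of the gene, the first-exon window at chr10:3069224-3069823 held 42 lactate and 23 ddH2O reads, a log2 ratio of 1.31 (0.57 to 2.14), or 1.70 on the library sums. Peaks were called there in both lists, at 4.28-fold with lactate and 4.68-fold with ddH2O. PFKL, the liver type, held 30 and 46 reads in its 3' UTR window, and PFKM, the muscle type, had 1 exon peak with 1 and 2 reads.

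The lactate peak of PFKP and the ddH2O peak of HIF1A began within the first 50 transcribed bases. In the other list the peak began farther in for both genes, with a q-value of 0.979 for HIF1A. Bases 21 to 50 after the start are shown because these windows passed the 2-fold rule in opposite directions on the deposited signals, though HIF1A fell short of it on the library sums. Capitals mark the bases inside the named peak. The sequences are those of RefSeq on GRCh38.p14, plus strand, at chr10:3069209-3069238 and chr14:61695533-61695562.
PFKP: cccgggaagtgctctGGCGTTAGCATTCCA
HIF1A: ctgaggggacaggaggatcaccctCTTCGT

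ALDOA, which splits fructose bisphosphate, and TPI1, which interconverts the triose phosphates, each had 1 window. The ALDOA window, at chr16:30069997-30070527, held 1117 lactate and 2136 ddH2O reads, a log2 ratio of 0.48 (0.37 to 0.58) that became -0.07 on the library sums, and it also lies on LOC112694756. The TPI1 window, at chr12:6870391-6870907, held 869 and 1662 reads, a log2 ratio of 0.42 (0.30 to 0.54) that became -0.07. Both sit at the 3' end of the transcript. ALDOC, the brain form of aldolase, held 4 and 7 reads.

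PFKFB2, PFKFB3 and PFKFB4 make and remove the small activator of phosphofructokinase. A 3' UTR window of PFKFB2, at chr1:207076575-207076977, held 47 lactate and 81 ddH2O reads, with a log2 ratio of -0.14 (-0.70 to 0.39), or 0.09 on the library sums. Its neighbour at chr1:207075770-207075969, which shares part of the same reads, held 7 and 34, a log2 ratio of -1.82 (-3.39 to -0.77), or -1.27 on the library sums. Both peaks were called with ddH2O alone. PFKFB4 had an intron window at chr3:48545700-48545899 with 7 lactate and 3 ddH2O reads, whose log2 ratio of 1.05, or 1.86 on the library sums, has an interval from -0.86 to 3.85. PFKFB3 had 10 windows, mostly intronic, of which none passed the rule on the deposited signals and 4 were higher on the library sums. The most-read of them held 10 and 17 reads.

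Lower glycolysis held the deepest windows of the set and also GAPDH, which had none. ENO1, the enolase, had 1339 lactate and 2720 ddH2O reads at chr1:8860905-8861405, 143 bases from the 3' end, and PKM, the pyruvate kinase, had 1292 and 2623 at chr15:72198989-72199445. Their log2 ratios were both 0.44 (0.35 to 0.54 for ENO1, 0.34 to 0.53 for PKM) on the deposited signals and both -0.16 on the library sums. Windows of the whole experiment with 2560 to under 5120 reads, 107 in number, had medians of 0.42 and -0.16 on these scales, so ENO1 and PKM lay where windows of such depth lay. Peaks there were enriched 2.42-fold with lactate and 2.54-fold with ddH2O for ENO1, and 3.44-fold and 4.27-fold for PKM.

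Away from the 3' end, introns of PKM held the highest fold enrichment among the 34 genes in each list. One peak reached 8.96-fold over input with lactate and 4.90-fold with ddH2O, and another 10.3-fold with ddH2O but 2.99-fold with lactate, where its q-value was 0.165. The latter, at chr15:72205614-72206066, had 70 lactate and 63 ddH2O reads and a log2 ratio of 0.80, which passed 1 on the library sums, at 1.01. An exon window of PKM, at chr15:72218639-72218948, was lower, with 7 and 25 reads and a log2 ratio of -1.42 (-3.01 to -0.31), or -0.84 on the library sums. An exon window of ENO1, at chr1:8875480-8875991, held 4 and 13 reads, with a log2 ratio of -1.34, or -0.62 on the library sums, and an interval from -3.63 to 0.14.

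PGAM1, the phosphoglycerate mutase, held 106 lactate and 167 ddH2O reads in its 3' UTR window at chr10:97432969-97433327, a log2 ratio of 0.17 (-0.20 to 0.52), or 0.21 on the library sums. ENO2, the neuronal enolase, held 24 and 60 reads at its 3' end, called with ddH2O alone, where LOC124902868 lies too. PGK1, which makes ATP at the first payoff step, had no window over 5 reads, and GAPDH, the dehydrogenase just before it, had no peak.

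The absence of GAPDH peaks stands beside peaks on its processed copies, while no copy of LDHA had a peak. Copies of the 34 genes, by symbol, carried 2 lactate peaks and 11 ddH2O peaks on 7 pseudogenes. GAPDHP43 had a peak in both lists, with 22 lactate and 38 ddH2O reads, a log2 ratio of -0.31, or 0.10 on the library sums, while GAPDHP40 and GAPDHP14 had ddH2O peaks. Reads of a gene and of its near-identical copy may be split between them, so these values and the absence of GAPDH are uncertain. Whether reads were split in this way was not tested. No listed peak overlapped the RefSeq span of GAPDH, LDHA, PDHB or MPC2, and the 3 on the span of PDK2 were annotated to SAMD14.

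In lactate exchange, LDHA and LDHB are the subunits of lactate dehydrogenase, SLC16A1 and SLC16A3 the lactate carriers, and BSG their chaperone. LDHB had an exon window at chr12:21641869-21642240 with 2 lactate and 10 ddH2O reads, a log2 ratio of -1.82 (-5.50 to -0.04), or -1.01 on the library sums, and a q-value of 1. The other peak listed under LDHB, with 0 and 3 reads, lies outside its RefSeq span and on that of KCNJ8-AS1. BSG had a 3' UTR window at chr19:583109-583567 with 438 and 752 reads, a log2 ratio of 0.40 (0.22 to 0.57), or 0.08 on the library sums. Its intron window at chr19:576266-576730 held 6 and 16, a log2 ratio of -1.07 (-0.42 on the library sums) with an interval from -2.85 to 0.22, and LOC102724290 lies there too. SLC16A1 had 31 lactate and 37 ddH2O reads in its most-read window, in an exon, with a log2 ratio of 0.24, or 0.61 on the library sums.

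SLC16A3, the lactate exporter, had a log2 ratio among the highest of the 21 windows of these genes with 100 or more reads, level with a PKM intron window on the deposited signals and below 2 PKM intron windows on the library sums. These 2 PKM windows share part of their reads. The window at chr17:82239190-82239616 held 434 lactate and 545 ddH2O reads, a log2 ratio of 0.81 (0.62 to 0.99), or 0.53 on the library sums, with peaks enriched 4.73-fold with lactate and 8.58-fold with ddH2O. CSNK1D lies on the same bases, and the library kit used does not mark strand, so the reads of these genes cannot be told apart. The 3 intron peaks listed under SLC16A3 lie outside its RefSeq span and inside that of CSNK1D. The window of one, at chr17:82256265-82256464, held 3 and 18 reads, a log2 ratio of -2.09 (-4.84 to -0.65), or -1.39 on the library sums.

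Of the 8 genes of pyruvate entry, MPC1 and MPC2 form the mitochondrial carrier, PDHA1, PDHB and DLAT belong to the dehydrogenase complex, and PDK1, PDK2 and PDK3 switch it off by phosphorylation. DLAT had a 3' UTR window at chr11:112062410-112062654 with 48 lactate and 127 ddH2O reads, a log2 ratio of -0.69 (-1.22 to -0.22), or -0.52 on the library sums, which also lies on PIH1D2. Its intron window at chr11:112028173-112028380, called with lactate alone, held 9 and 4, a log2 ratio of 1.10 (1.86 on the library sums) with an interval from -0.57 to 3.42. MPC1 held 5 and 8 reads in an intron window.

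PDK1, a HIF1A target, was the gene with more lactate reads at its most-read window. This 3' UTR window, at chr2:172598792-172599370, held 31 lactate and 19 ddH2O reads, a log2 ratio of 1.09 (0.25 to 2.03), or 1.54 on the library sums. Peaks there were enriched 2.51-fold over input with lactate and 1.62-fold with ddH2O. Their peak-calling q-values were 0.347 and 1, so neither was under 0.05. PDK3 had an exon window at chrX:24533931-24534361 with 3 and 14 reads, a log2 ratio of -1.78 (-4.54 to -0.26), or -1.04 on the library sums, where the ddH2O peak had a fold enrichment of 1.63 and a q-value of 1. Its most-read windows held 18 and 15 reads (log2 ratio 0.57, but past the rule at 1.11 on the library sums) and 12 and 21 reads (-0.44, or 0.10). PDHA1 had 21 and 24 reads in a 3' UTR window called with lactate alone, where MAP3K15 lies too.

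HIF1A had 10 windows of few reads each, the most-read one in an exon with 16 lactate and 25 ddH2O reads, where HIF1A-AS3 lies too, as on 7 of the 10. Its first-exon window, at chr14:61695557-61695893, was enriched 9.71-fold over input with ddH2O and 3.24-fold with lactate, where the q-value was 0.979. It held 5 lactate and 18 ddH2O reads, a log2 ratio of -1.46 (-3.43 to -0.16), or -0.80 on the library sums, and HIF1A-AS1 lies there too. An intron window at chr14:61703286-61703611 held 10 and 5, a log2 ratio of 1.01 (1.74 on the library sums) with an interval from -0.55 to 3.04. PGM1, which links glycogen to glycolysis, held 18 and 32 reads in its 3' UTR window.

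Over the whole set, 7 of the 85 windows with at least 10 reads (8.24%) were higher with lactate past 2-fold, beside 11.3% of all 63903 merged windows with as many reads. The number lower was 18 (21.2%), beside 24.9% of all. Both shares lie near those of all windows. By gene, 7 of 26 (26.9%) had a higher window, beside 28.7% of the 10199 protein-coding genes with such a window, and 10 of 26 (38.5%) had a lower one, beside 51.6%. Of the 18 lower windows, 2 listed under SLC16A3 lie outside it, in CSNK1D, and without them 16 windows in 9 genes were lower. HIF1A, HK1 and PFKP had windows in both directions, of which only PFKP kept both on the library sums.

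Scaling by the library sums turned the balance, with 17 windows higher, beside 23.5% of all, and 8 lower, beside 13.0% of all. All 7 higher windows were higher on both scales, as were 8 of the 18 lower ones lower. Of the 7 higher windows, 4 had a counting interval wholly above 0, and of the 18 lower ones 13 had one wholly below 0, while 1 in each direction lay wholly past 2-fold. The higher one was in HK1, and the lower one, with 0 lactate and 10 ddH2O reads, was one of those in CSNK1D, so no lower window on a gene's own span had such an interval. Under 50 reads were held by 4 of the 7 and by 16 of the 18. The most-read windows of the 12 deepest genes did not pass the rule.

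**Figure D3:**
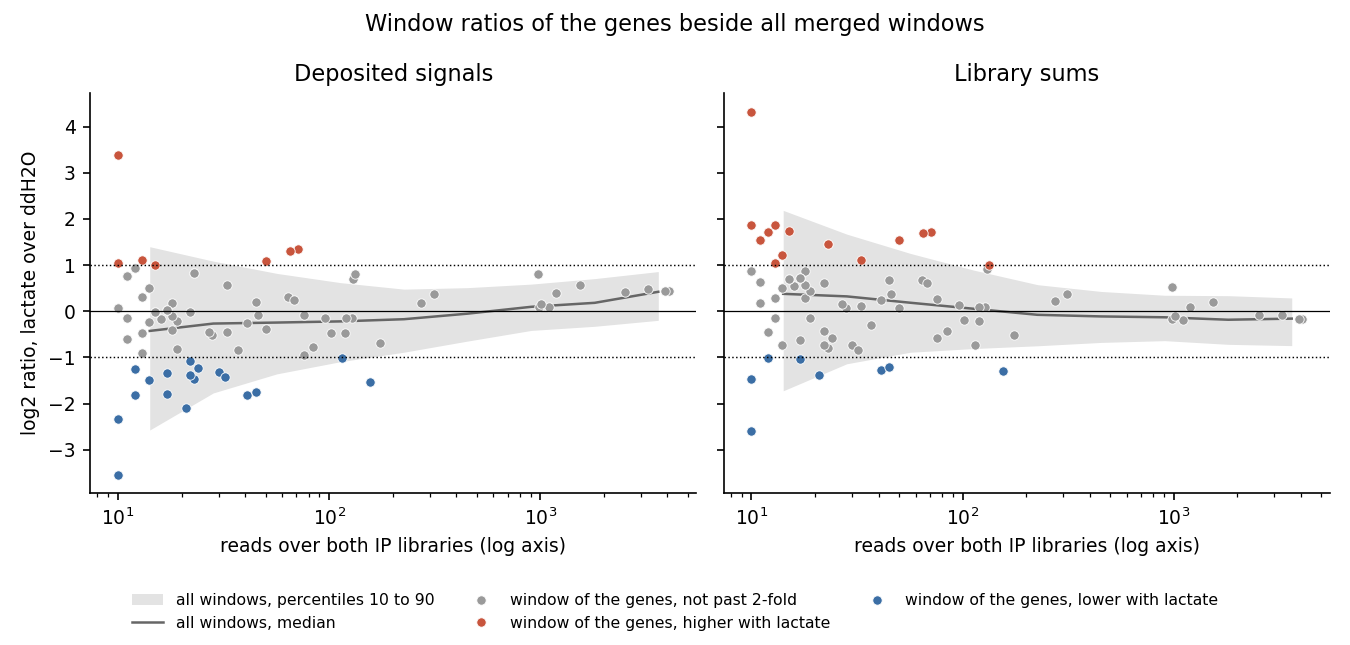
Log2 ratio of lactate over ddH2O (vertical axis) against reads over both IP libraries (horizontal, log axis) for the 85 windows of the genes with at least 10 reads, on the deposited signals and on the library sums. Red and blue points passed 2-fold (dotted lines), grey points did not, the grey band spans most of all merged windows (percentiles in the key) and the line is their median; on the deposited signals 7 points are red and 18 blue, and on the library sums 17 and 8.

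The median log2 ratio of the 85 windows was -0.09, beside -0.25 over all windows with as many reads, and 0.20 beside 0.18 on the library sums. Among windows with 100 or more reads it was 0.17 for the 21 of these genes and -0.10 for all 9210, while the library sums gave -0.07 for both. The deposited-signal median of all windows itself went up with depth, from -0.22 at 80 to under 160 reads to 0.42 in the deepest class, and the 21 include very deep windows. The sign of both medians of these genes turned with the scaling, and with 1 window per gene the median was 0.01 on the deposited signals. Of the 21, 19 had more ddH2O reads than lactate reads.

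The place of the most-read window along the gene was compared in the same way. In 15 of the 29 genes with a peak (51.7%, interval 34.4 to 68.6%), the summit of the most-read window was within 500 bases of the 3' end of the RefSeq gene, beside 28.1% of the 12262 protein-coding genes with a window. Restricted to most-read windows with at least 100 reads, the counts were 8 of 13 (61.5%, interval 35.5 to 82.3%) and 38.6% of 4691 genes, a share inside the interval. Of the 12 genes with the most reads, ENO1, ALDOA, BSG, PKM, GPI, TPI1 and PGAM1 had it at 143, 145, 151, 184, 237, 292 and 302 bases. SLC16A3, PFKP, SLC2A1, DLAT and PFKFB2 had it farther away, at 680, 954, 972, 1872 and 4251 bases. The library kit primes at poly(A) tails, and how much that placed the reads there was not tested.

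**Figure D4:**
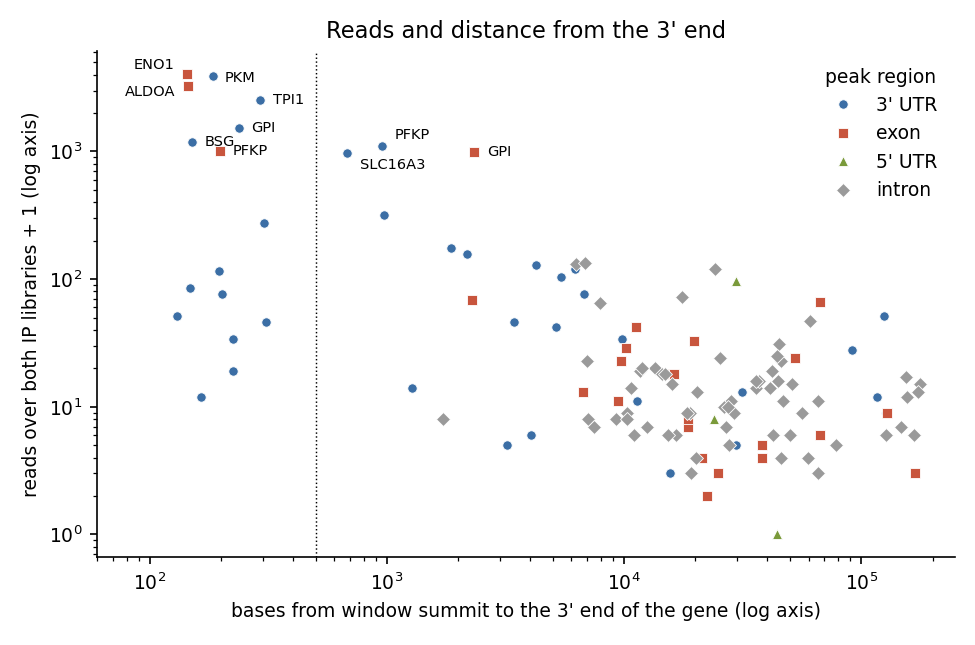
Reads plus 1 over both IP libraries (vertical, log axis) against the bases from a window's summit to the 3' end of the gene (horizontal, log axis), with symbols for the region of the peak. Genes with the most reads are named, the dotted line marks 500 bases, and ENO1 at 143 bases has the most reads; windows outside the RefSeq span of their gene are left out.

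Enrichment over input was compared between the lists in windows called in both. Of the 42 such windows of these genes, 23 had the higher fold enrichment in the ddH2O list, beside 59.4% of 23178 windows of protein-coding genes. The difference between these shares was not tested. Single windows differed in both directions, as in a PKM intron (8.96-fold with lactate, 4.90-fold with ddH2O) and the HK1 3' UTR (5.46-fold and 9.14-fold). Over the 42 windows the median folds were 3.34 with lactate and 3.31 with ddH2O, beside 3.98 and 4.68 over protein-coding genes. Each list was called against its own input, so the depth of the inputs enters these folds.

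**Figure D5:**
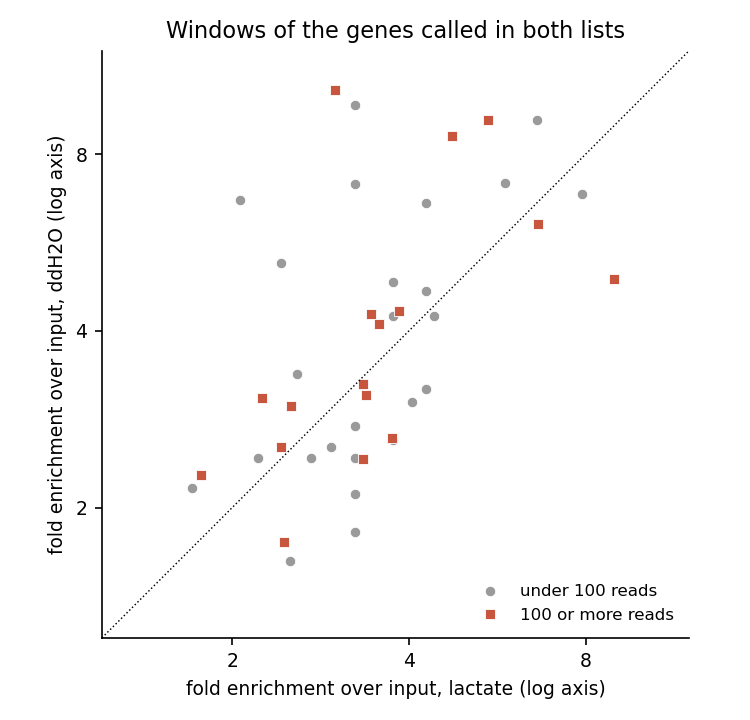
Fold enrichment over input in the ddH2O list against that in the lactate list (both log axes) for the 42 windows of the genes called in both, with red squares for windows of 100 or more reads. Points above the dotted line of equality, 23 of 42, have the higher fold with ddH2O.

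Other genes of the pathway, 56 by name, included isoforms of other tissues, gluconeogenic and malic enzymes, glucose transporters and the oxygen sensors. Peaks lay on 27 of them with lactate and on 32 with ddH2O, beside 47.1% and 58.4% of all protein-coding RefSeq genes. These shares lay near those of the 56. Of the 56, 29 had a window with at least 10 reads. Of their 103 such windows, 7 were higher and 28 lower past 2-fold, or 19 and 13 on the library sums. Over all windows the shares were 11.3% and 24.9%, or 23.5% and 13.0% on the library sums, and those of the 103 lay near them.

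The windows named from these genes were low in reads. In HIF1AN, the asparagine hydroxylase that restrains HIF1A, a 3' UTR window at chr10:100558191-100558390 held 3 lactate and 40 ddH2O reads, a log2 ratio of -3.11 (-5.83 to -1.84), or -2.49 on the library sums. The most-read window of HIF1AN held 175 and 423 reads. Of its 8 windows with at least 10 reads, 3 were lower, or 2 on the library sums, and 0 were higher. In ME3, a mitochondrial malic enzyme, an intron window at chr11:86643903-86644623 held 3 and 37, a log2 ratio of -3.01 (-5.73 to -1.73), or -2.39. In ME2, another, an intron window at chr18:50936414-50936916 held 9 and 25, a log2 ratio of -1.07 (-2.45 to -0.02), or -0.52, and another of its 7 windows was higher past 2-fold. The intervals of HIF1AN and ME3 lay wholly past 2-fold.

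The 3 windows named as higher with lactate lay in introns. EMB, a partner of the lactate carriers, had 11 lactate and 2 ddH2O reads at chr5:50428954-50429153, a log2 ratio of 2.06 (0.33 to 5.74), or 2.86 on the library sums. ME1, the cytosolic malic enzyme, had 12 and 5 at chr6:83260401-83260865, a log2 ratio of 1.27 (1.98 on the library sums) with an interval from -0.19 to 3.28. Most of the other calls in ME1 went the other way, with 7 of its 11 windows lower on the deposited signals, though 1 lower and 2 higher on the library sums. EGLN1, an oxygen sensor that marks HIF1A for breakdown, had 10 and 5 at chr1:231415861-231416381, a log2 ratio of 1.01 (1.74 on the library sums) with an interval from -0.55 to 3.04.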

How the data were processed

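RIP-seq of PANC-1 cells gave 1 IP and 1 input library for lactate and for ddH2O, grouped by the sample labels. Libraries were made with the SMART-Seq v4 kit, which primes on poly(A) tails and does not mark strand. The submitters' processing notes name fastp 0.20.1, HISAT2 2.1.0, MACS2 2.2.7.1, bedtools 2.29.2, HOMER 4.11.1 and DiffBind, and the build GRCh38. Peaks of each IP were called by the authors over the matching input, with a deposited fold enrichment (a ratio over input), p-value and q-value. They merged the lists, compared the IP libraries with MAnorm and deposited the normalized signal (read density) of each library per merged peak. The M and P columns of that comparison were not used.

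From there, log2 ratios were computed from the deposited signals. Whole reads per window were computed back, taking a density as the reads plus 1 over a 2000-base window and the rescaling as a line in mean log2 density (slope 0.17, intercept -0.20). All 116469 windows of under 5000 reads per library came out whole, within 0.02 or 0.0001 of the value. The read recovery and the intervals were tested on simulated data. Peaks and windows were matched by at least 1 base, and a window was called at a fold over 2 with at least 10 reads over both libraries. Intervals are 95% Wilson or exact binomial. The depth outside merged peaks and of the inputs is unknown. Distances use RefSeq GRCh38.p14 spans, and start sequences were at hand for 32 of the 34 genes. All coordinates count from 1.

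Values are given for the 12 genes with the deepest windows, for each gene with a window past the rule (its deepest such window in each direction), for genes with no peak, and for 3 other pathway genes per direction. The members and lists were chosen with earlier results of these data known. Other PFKP, PKM, PDK3, HK2, PFKFB3, SLC16A1, ENO2, PGM1, PFKL, PFKM, ALDOC, MPC1 and PDHA1 values, the 500-base distance, the 100-read class, the 4 most-read windows, the read bins and the folds of windows in both lists were chosen after values were seen. Alternatives were library-sum scaling, other read minimums, folds, overlaps and regions, a fold enrichment of at least 4 and a q-value below 0.05. The scripts ran on Python 3.11.15 with scipy 1.17.1, matplotlib 3.10.9, pandas 2.3.3 and numpy 2.4.6.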

Additional observations from a re-analysis of the deposited data

How the results depend on the processing

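Of 44 alternative values, 16 were labelled the same and 28 moved. A count was the same within 1.5 times, a share inside its Wilson interval, and a median inside the 95% interval of its order statistics. The cause was not tested where the setting's own construction does not show it. Genes with a peak numbered 23 with lactate and 28 with ddH2O; a fold enrichment of at least 4 gave 8 and 14, and a q-value below 0.05 gave 14 with lactate. Windows higher with lactate numbered 7, and 17 under library-sum scaling, 15 with no read minimum, 3 with at least 50 reads, 1 at a fold over 4 and 2 on exon or UTR peaks. Windows lower with lactate numbered 18, and under the same settings 8, 43, 2, 3 and 11. Genes with a higher window numbered 7, and 11, 12, 3, 1 and 2. Genes with a lower window numbered 10, and 5 under library-sum scaling, 17 with no read minimum, 2 with at least 50 reads and 2 at a fold over 4. The median log2 ratio was -0.09, and 0.20 under library-sum scaling and 0.17 with at least 50 reads. A q-value below 0.05 gave an exon and UTR share of 67.9% for lactate and 69.5% for ddH2O, and a median fold enrichment of 4.17 and 4.25. Stricter filters keep fewer windows by construction. With 1 IP library per condition there were no pairs to analyse.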
